A study of Mus musculus with 6 samples.

Results

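The transcripts of 44 cell cycle and proliferation genes were described in renal tubular epithelial cells, the cells that line the tubules of the nephron, released with collagenase from injured mouse kidneys. The genes were chosen by symbol, and the transcript cluster annotated with that symbol was read, a cluster being the set of probes that reports 1 gene in most cases. In all, 40 of the 44 genes matched a cluster, out of 19505 genes with a symbol and 22206 clusters tested. Ccnb1, Ccnd1, Foxm1 and Mcm7 matched none and were not analysed here. The measured genes were kept in 3 classes. There were 3 genes of G1 entry, 14 genes of the G1/S transition and DNA replication, and 23 genes of G2 and mitosis.

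Treated mice had 30 min of renal ischemia and 24 h of reperfusion with PT2385 (IR PT2385, 3 arrays), an inhibitor of the hypoxia-inducible factor HIF-2α, injected 4 times at 10 mg/kg, which was 16 h ahead of the operation and then 1, 8 and 20 h later. Control mice went through the same ischemia and reperfusion with vehicle (IR vehicle, 3 arrays). The labels also spell the compound PT2384 where they give its dose, and the sample names IRPT and IR were read as the PT2385 and the vehicle arm. No uninjured kidney was analysed here, so no value below shows what injury itself did to these genes. Strain, age and sex are not given in the labels. The Y-linked genes Eif2s3y, Uty and Kdm5d had mean log2 signals of 3.21, 2.99 and 3.32 in the IR PT2385 arrays, against 9.20, 8.66 and 6.47 in the IR vehicle arrays. An effect of PT2385 and a difference in sex between the groups can therefore not be told apart in any comparison below.

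Progress through the cell cycle is driven by cyclins, which activate cyclin-dependent kinases in turn. D-type cyclins with Cdk4 respond to growth signals in G1 and release E2F transcription factors, which switch on cyclin E and the genes that copy DNA. A later wave of genes, driven by B-Myb and FoxM1, supplies the kinases, motors and checkpoint proteins of mitosis, and the anaphase-promoting complex then marks mitotic proteins for destruction. Tubular epithelium in a healthy kidney divides rarely, and surviving tubular cells are known to re-enter the cycle after ischemic injury.

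No member passed the threshold of an adjusted p of 0.05, at which a gene is named called here. In limma's test with Benjamini-Hochberg adjustment over all clusters, 0 of 40 members were called, where 0.829% of all clusters were called and 0.333% were called higher. At an unadjusted p under 0.05, 9 members were higher and 0 lower in IR PT2385, where 7.94% of all clusters were higher and 6.54% lower. The difference (IR PT2385 minus IR vehicle, log2 signal) was above 0 for 35 of the 40 members, where it was above 0 for 53.5% of all clusters. The arrays of the groups did not overlap, with IR PT2385 on top, for 9 members, where 11.6% of all clusters had this pattern, and with IR PT2385 below for 1 member, where 9.13% had it. The median difference was 0.24 over the 40 members and 0.02 over all clusters. Divided by class, it was 0.10 for G1 entry, 0.15 for G1/S and 0.33 for G2/M. In such isolates, more dividing cells and more RNA per dividing cell cannot be told apart.

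**Figure D1:**
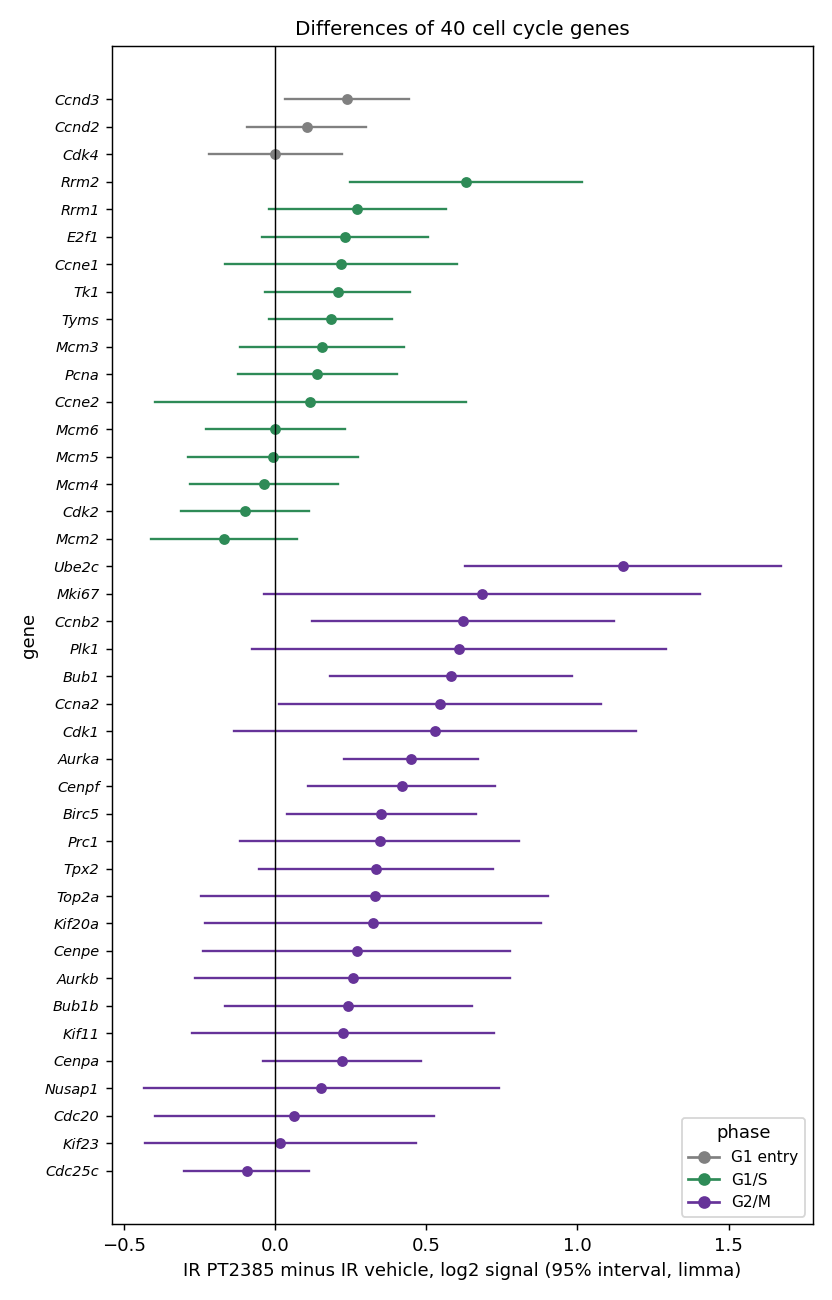
Difference in log2 signal (IR PT2385 minus IR vehicle, x axis) of the 40 measured members, with 95% intervals from limma, ordered by class and size. Of the 23 G2/M genes 22 lie right of 0, led by Ube2c at 1.15, while the MCM genes lie around 0.

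The D-type cyclin genes, which carry growth signals into the cycle, differed little. Ccnd3 had log2 signals of 10.14, 10.16 and 10.09 in the IR PT2385 arrays, against 9.83, 9.90 and 9.95 in the IR vehicle arrays. The groups did not overlap, and the difference was 0.24 (SE 0.09, adjusted p = 0.282 by limma). Ccnd2 had 7.64, 7.57 and 7.61 in IR PT2385, against 7.51, 7.49 and 7.50 in IR vehicle, also without overlap, with a difference of 0.10 (SE 0.09). Cdk4, the kinase partner of these cyclins, had 9.66, 9.80 and 9.89 in IR PT2385, against 9.78, 9.77 and 9.79 in IR vehicle. Its groups overlapped, and the 95% interval of the difference ran from -0.22 to 0.22.

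At the G1/S transition, E2f1, which encodes the transcription factor that opens S phase, had 5.88, 6.16 and 5.78 in the IR PT2385 arrays, against 5.82, 5.67 and 5.64 in the IR vehicle arrays. The groups overlapped through vehicle replicate 1, and the difference was 0.23 (SE 0.12, adjusted p = 0.417 by limma). The cyclin E gene Ccne1 had 7.26, 7.36 and 7.31 in IR PT2385, against 7.47, 6.75 and 7.05 in IR vehicle. Here vehicle replicate 1 was the highest of all 6 arrays, and the other vehicle arrays lay below every IR PT2385 array. Its paralog Ccne2 had a difference of 0.12 and their kinase gene Cdk2 one of -0.10, with intervals from -0.40 to 0.63 and from -0.31 to 0.11.

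The MCM genes encode the ring-shaped helicase that unwinds DNA at replication forks. The 5 measured MCM genes showed no common direction, with differences from -0.17 (Mcm2) to 0.15 (Mcm3) and a median of -0.01. The signs of the smallest turn with the scaling: Mcm6 turned negative with median-centred arrays, and Mcm4 and Mcm5 turned positive with quantile normalization. Mcm6 had 9.003, 8.86 and 8.77 in the IR PT2385 arrays, against 8.96, 8.84 and 8.83 in the IR vehicle arrays. The groups lay on top of each other, and the 95% interval of the difference, -0.23 to 0.23, bounds a change in signal at 1.17-fold either way. Mcm2 had 7.72, 7.99 and 7.78 in IR PT2385, against 8.07, 8.00 and 7.92 in IR vehicle, a difference of -0.17 (SE 0.11, adjusted p = 0.506 by limma).

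The genes that supply the fork with nucleotides all had positive differences. Rrm2, the small subunit of ribonucleotide reductase and the one whose level follows S phase, had 8.80, 8.56 and 8.40 in the IR PT2385 arrays, against 8.28, 7.67 and 7.93 in the IR vehicle arrays. The groups did not overlap, with means of 8.59 ± 0.20 in IR PT2385 and 7.96 ± 0.31 in IR vehicle (SD, n = 3 each). Its difference of 0.63 (SE 0.17) was the largest among the G1/S members, with an unadjusted p of 0.00505 by limma and an adjusted p of 0.160. Rrm1, the large subunit, had 7.51, 7.87 and 7.69 in IR PT2385, against 7.58, 7.40 and 7.26 in IR vehicle, with overlap through vehicle replicate 1. Thymidylate synthase (Tyms) had 8.39, 8.47 and 8.42 in IR PT2385, against 8.30, 8.20 and 8.23 in IR vehicle, without overlap but with a difference of only 0.18 (SE 0.09). Thymidine kinase (Tk1) and the sliding clamp gene Pcna had differences of 0.21 and 0.14. Pcna had 10.94, 11.16 and 11.01 in IR PT2385, against 11.08, 10.82 and 10.78 in IR vehicle, so vehicle replicate 1 lay inside the IR PT2385 range.

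The largest difference of any member belonged to Ube2c, the ubiquitin-conjugating enzyme that works with the anaphase-promoting complex. It had 7.28, 7.33 and 7.07 in the IR PT2385 arrays, against 6.67, 5.78 and 5.77 in the IR vehicle arrays. All 3 IR PT2385 arrays lay above all 3 IR vehicle arrays, and vehicle replicate 1 stood apart from the other vehicle arrays. The means were 7.23 ± 0.14 in IR PT2385 and 6.08 ± 0.52 in IR vehicle (SD, n = 3 each), a difference of 1.15 (SE 0.23), or 2.22-fold with a 95% interval from 1.55-fold to 3.19-fold. The adjusted p by limma was 0.0723. It became 0.00532 without vehicle replicate 1 and 0.0338 with array weights, and it ranged up to 0.295 when another array was left out. Cdc20, the activator of the same complex, was dim and showed no such pattern, with 4.20, 4.88 and 4.36 in IR PT2385, against 4.67, 4.49 and 4.09 in IR vehicle.

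**Figure D2:**
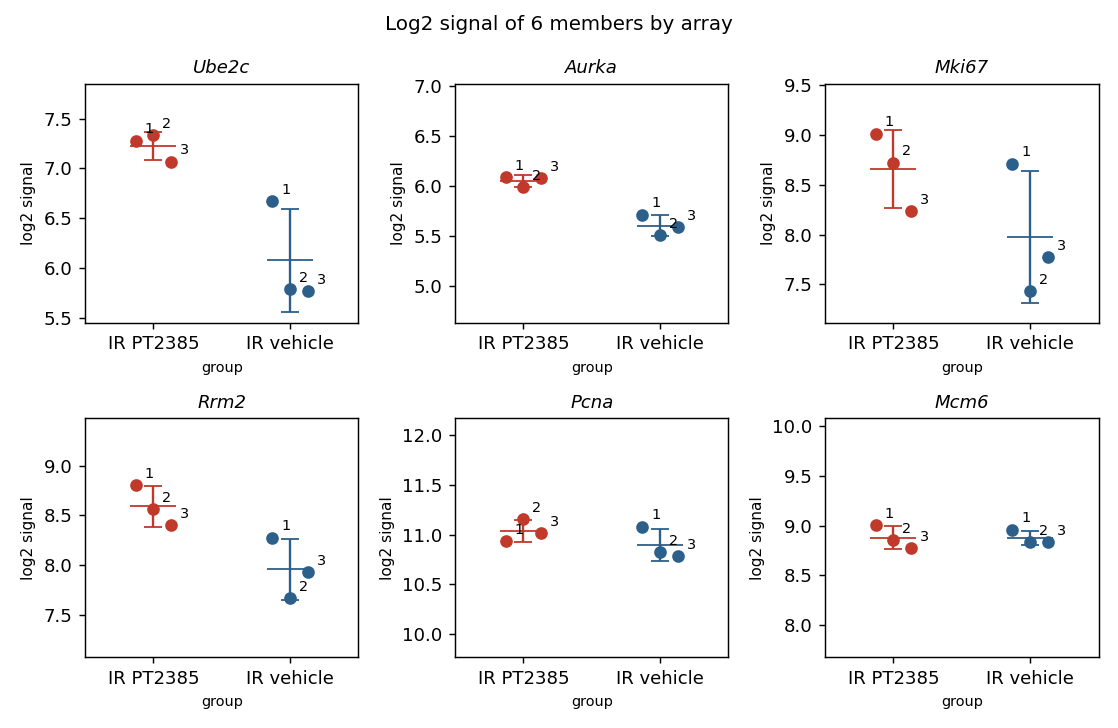
Log2 signal (y axis) of 6 members in each array of IR PT2385 (red, left) and IR vehicle (blue, right), with mean and SD and the replicate number beside each point. All panels span 2.4 log2 units. Ube2c, Aurka and Rrm2 do not overlap between groups, Mki67 overlaps through vehicle replicate 1, and Mcm6 lies at one level.

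Aurka, the kinase that matures centrosomes and builds the spindle poles, had the tightest separation among the mitotic genes. Its signals were 6.09, 5.99 and 6.08 in the IR PT2385 arrays, against 5.71, 5.51 and 5.58 in the IR vehicle arrays. The groups did not overlap, and the gap between them was wider than the range within either group. The difference was 0.45 (SE 0.10, unadjusted p = 0.00142, adjusted p = 0.0952 by limma). Aurkb, the kinase of the chromosomal passenger complex, had 6.95, 6.10 and 6.37 in IR PT2385, against 6.54, 6.21 and 5.91 in IR vehicle, and its groups overlapped. Birc5 (survivin), a partner of Aurkb in that complex, had 7.18, 7.53 and 7.17 in IR PT2385, against 7.04, 6.73 and 7.05 in IR vehicle. Its groups did not overlap, with a difference of 0.35 (SE 0.14, adjusted p = 0.298 by limma).

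The cyclins and kinases that start mitosis had larger differences with a wider spread. Cyclin B2 (Ccnb2) had 7.15, 6.96 and 6.82 in the IR PT2385 arrays, against 6.76, 5.82 and 6.49 in the IR vehicle arrays, a difference of 0.62 (SE 0.22, adjusted p = 0.257 by limma) without overlap. Cyclin A2 (Ccna2), which acts in S phase and G2, had 7.54, 7.32 and 6.75 in IR PT2385, against 7.08, 6.38 and 6.51 in IR vehicle, a difference of 0.55 (SE 0.23). Vehicle replicate 1 lay above IR PT2385 replicate 3, so these groups overlapped. The mitotic kinase gene Cdk1 had 6.46, 6.19 and 5.92 in IR PT2385, against 6.41, 5.25 and 5.32 in IR vehicle. Polo-like kinase 1 (Plk1) had 7.38, 6.995 and 6.44 in IR PT2385, against 6.97, 5.96 and 6.07 in IR vehicle. For both, IR vehicle replicates 2 and 3 lay below all IR PT2385 arrays while replicate 1 lay among them, and the intervals of the differences ran from -0.14 to 1.19 for Cdk1 and from -0.08 to 1.29 for Plk1. The phosphatase gene Cdc25c, which activates Cdk1, was the one member with IR PT2385 wholly below IR vehicle, at 2.96 to 3.02 in IR PT2385 and 3.02 to 3.17 in IR vehicle. Both ranges lay under 4.47, the top value among the array medians of negative control probes, so Cdc25c had no signal above those probes.

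Mki67, which encodes the proliferation marker Ki-67 that coats mitotic chromosomes, had 9.01, 8.72 and 8.24 in the IR PT2385 arrays, against 8.71, 7.43 and 7.77 in the IR vehicle arrays. The vehicle arrays spread over more than the difference of the means (0.68, SE 0.32, adjusted p = 0.368 by limma). Top2a, the topoisomerase that untangles sister chromatids, had 6.33, 6.50 and 6.33 in IR PT2385, against 6.73, 5.63 and 5.82 in IR vehicle. Vehicle replicate 1 was its highest array and vehicle replicate 2 its lowest.

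The checkpoint kinase gene Bub1 had 5.46, 5.24 and 5.01 in the IR PT2385 arrays, against 5.02, 4.53 and 4.43 in the IR vehicle arrays, a difference of 0.58 (SE 0.18, adjusted p = 0.203 by limma). Its groups touched, with vehicle replicate 1 and IR PT2385 replicate 3 at almost the same signal. Bub1b (BubR1), the checkpoint partner that restrains Cdc20, had a mean under the negative control level in both groups, with a difference of 0.24. At the kinetochore, Cenpf had 6.22, 5.80 and 5.76 in IR PT2385, against 5.59, 5.47 and 5.46 in IR vehicle, a difference of 0.42 (SE 0.14, adjusted p = 0.227 by limma) without overlap. The centromeric histone gene Cenpa and the kinetochore motor gene Cenpe had differences of 0.22 and 0.27 with overlap.

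The 6 spindle motors and microtubule bundlers had differences from 0.02 to 0.35, and 0 of them separated the groups, where 11.6% of all clusters did with IR PT2385 on top. Prc1, which bundles the central spindle, had 6.46, 5.95 and 5.78 in the IR PT2385 arrays, against 5.94, 5.85 and 5.37 in the IR vehicle arrays. Tpx2, the activator of Aurora A on the spindle, had 6.43, 6.08 and 5.88 in IR PT2385, against 6.08, 5.70 and 5.62 in IR vehicle. For these genes IR PT2385 replicate 1 was high and replicate 3 low, which widened the intervals to -0.11 to 0.81 for Prc1 and -0.05 to 0.72 for Tpx2. The motor genes Kif20a (0.32) and Kif11 (0.22) and the bundler Nusap1 (0.15) had smaller differences. Kif23, the motor of the cytokinetic midzone, differed by 0.02 and turned negative with median-centred arrays. Most G2/M members had signals inside the range of the 23 background control probes (2.41 to 7.47), where differences of weak signals can be understated. The G1/S members E2f1, Ccne2, Mcm5 and Tk1 lay in that range too. By the lower mark of the negative control level, 20 of the 23 G2/M members and all 14 G1/S members had both group means above it.

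**Figure D3:**
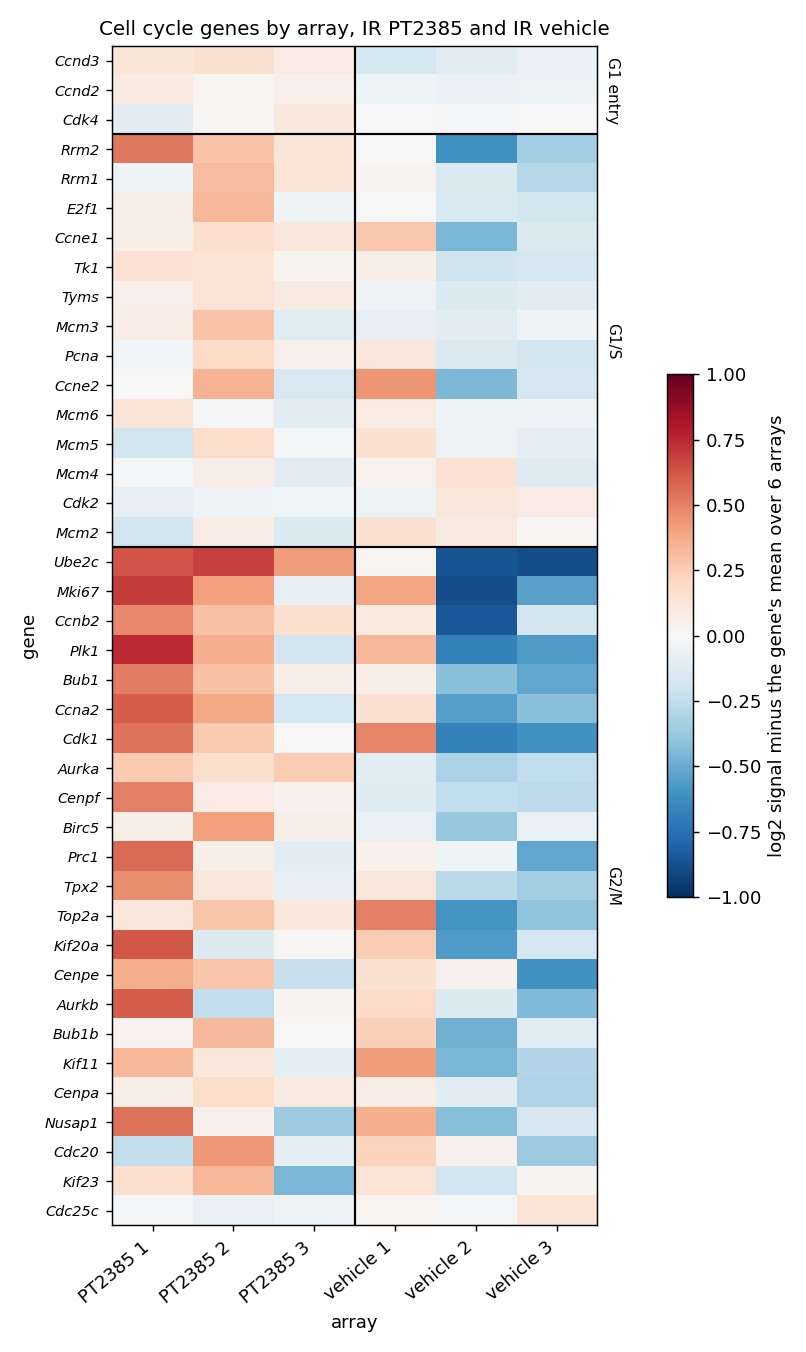
Deviation of the log2 signal from each gene's mean over the 6 arrays (colour scale, -1 to 1) for the 40 members (rows, by class and size of difference) in each array (columns). Most G2/M genes are low in vehicle replicates 2 and 3 and high in IR PT2385 replicate 1, with vehicle replicate 1 between or among the IR PT2385 arrays.

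The spread of the mitotic genes was shared between genes rather than scattered. Vehicle replicate 1 was the highest vehicle array for 21 of the 23 G2/M members and 11 of the 14 G1/S members, where this held for 29.9% of all clusters. Within the treated group, IR PT2385 replicate 1 was the highest array for 16 of the 23 G2/M members, against 36.8% of all clusters, and replicate 3 the lowest for 17 of them, against 34.8% of all clusters. Averaged over the 23 G2/M members, the deviation from each gene's mean was 0.38, 0.22 and -0.03 in the IR PT2385 arrays, against 0.17, -0.39 and -0.34 in the IR vehicle arrays. For the 14 G1/S members it was 0.04, 0.18 and -0.01 in the IR PT2385 arrays, against 0.08, -0.15 and -0.13 in the IR vehicle arrays. In both classes vehicle replicate 1 lay above IR PT2385 replicate 3. The group averages of the G2/M deviation were 0.19 ± 0.21 in IR PT2385 and -0.19 ± 0.31 in IR vehicle (SD, n = 3 each), so their difference of 0.38 compares with a spread of similar size. For G1/S they were 0.07 ± 0.10 in IR PT2385 and -0.07 ± 0.13 in IR vehicle (SD, n = 3 each), a difference of 0.13. The average of the 3 G1 entry genes spread least and did not overlap, with 0.03 to 0.08 in IR PT2385 and -0.07 to -0.03 in IR vehicle. Among these genes, Cdk4 by itself overlapped between groups. Centring each array on its median shifted the median difference of all clusters by -0.046. Whether the G1 entry averages stay apart after such centring was not tested.

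**Figure D4:**
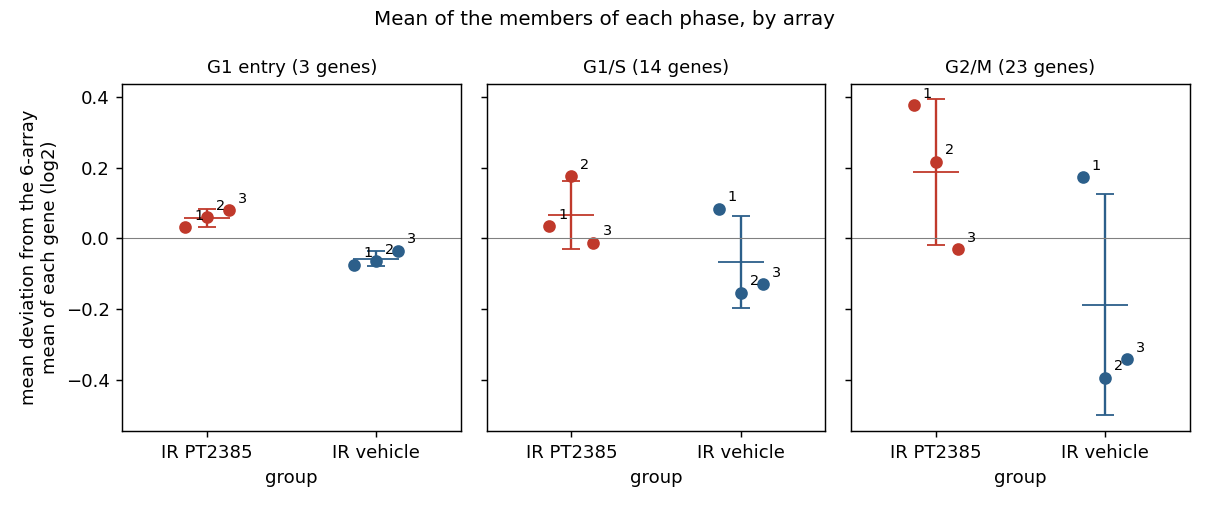
Mean deviation of the members of each class from their 6-array means (y axis, log2) in each array of IR PT2385 (red, left) and IR vehicle (blue, right), with the group mean and SD and the replicate number beside each point. The G2/M genes of vehicle replicate 1 (0.17) lie among the IR PT2385 arrays, and those of vehicle replicates 2 and 3 (-0.39 and -0.34) lie apart.

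Without vehicle replicate 1, an omission listed among the alternatives, the median difference of the G2/M members was 0.47 and that of the G1/S members 0.22. The G2/M members whose arrays did not overlap, with IR PT2385 on top, numbered 16 of 23 in that fit, against 17.3% of all clusters. Since the array left out was the highest vehicle array for most of them, this count follows from the choice of array. Without IR PT2385 replicate 3, often the lowest treated array, the count was 12, against 18.1% of all clusters. Without any other array it was 5 or 6, against 15.3% to 18.5% of all clusters. With all arrays it was 5, against 11.6%. Cdk1 had a difference of 0.90 (SE 0.17, adjusted p = 0.105 by limma) without vehicle replicate 1, Mki67 1.05 (SE 0.23, adjusted p = 0.160) and Top2a 0.66 (SE 0.12, adjusted p = 0.102). Ube2c, at 1.45 (SE 0.12, adjusted p = 0.00532), was the 1 member called. The omission of that array was looked at more closely after its values were seen, and nothing in the labels sets it apart.

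The promoters of the members were read to see what the classes share in sequence. RefSeq windows (GRCm38.p6) of 250 bases before to 50 after a gene's start were found for 32 of the 40 measured members, 34 windows in all. They were searched on both strands for 3 elements known from cell cycle promoters. These were the CHR element (spelled TTTGAA, with TTCGAA as a variant), which the DREAM and MuvB complexes bind, the CCAAT box bound by NF-Y, and the E2F site (spelled TTCCCGC, with TTGGCGC as a first variant, TTCGCGC as another variant and TTGCCGC as the last variant). Matches of different elements did not overlap in these windows, while matches of 1 element on opposite strands can share bases. The printed windows are a selection, without those of Cenpf and Birc5, G2/M members that had an unadjusted p under 0.05 by limma. The Birc5 window holds 0 matches. The windows below are those of 4 further G2/M members with an unadjusted p under 0.05 (Ube2c, Aurka, Bub1 and Ccnb2), of both ribonucleotide reductase genes and of Mcm6, whose signal lay at one level in both groups. They run 5′ to 3′ along the gene, with every match in capitals. They lie at chr2:164769679-164769978 (plus strand, Ube2c), chr2:172370521-172370820 (minus, Aurka), chr2:127831810-127832109 (minus, Bub1), chr9:70421505-70421804 (minus, Ccnb2), chr12:24708004-24708303 (plus, Rrm2), chr7:102441445-102441744 (plus, Rrm1) and chr1:128359656-128359955 (minus, Mcm6).
Ube2c: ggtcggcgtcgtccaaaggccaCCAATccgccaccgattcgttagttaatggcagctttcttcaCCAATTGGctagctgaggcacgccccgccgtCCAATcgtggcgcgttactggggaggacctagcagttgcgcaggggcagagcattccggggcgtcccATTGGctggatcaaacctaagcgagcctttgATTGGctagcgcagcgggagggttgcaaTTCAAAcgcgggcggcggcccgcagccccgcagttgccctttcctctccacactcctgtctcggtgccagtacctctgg
Aurka: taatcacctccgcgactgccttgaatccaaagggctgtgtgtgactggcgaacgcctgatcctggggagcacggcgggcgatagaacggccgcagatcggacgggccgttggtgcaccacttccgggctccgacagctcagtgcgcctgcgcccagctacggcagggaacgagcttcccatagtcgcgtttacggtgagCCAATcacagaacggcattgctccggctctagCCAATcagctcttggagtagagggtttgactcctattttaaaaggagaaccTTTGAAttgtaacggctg
Bub1: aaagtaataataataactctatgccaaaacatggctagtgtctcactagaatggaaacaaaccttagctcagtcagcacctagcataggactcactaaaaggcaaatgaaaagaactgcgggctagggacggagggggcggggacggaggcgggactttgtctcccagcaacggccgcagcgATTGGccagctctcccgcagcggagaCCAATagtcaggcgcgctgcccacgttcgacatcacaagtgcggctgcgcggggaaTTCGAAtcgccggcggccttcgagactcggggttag
Ccnb2: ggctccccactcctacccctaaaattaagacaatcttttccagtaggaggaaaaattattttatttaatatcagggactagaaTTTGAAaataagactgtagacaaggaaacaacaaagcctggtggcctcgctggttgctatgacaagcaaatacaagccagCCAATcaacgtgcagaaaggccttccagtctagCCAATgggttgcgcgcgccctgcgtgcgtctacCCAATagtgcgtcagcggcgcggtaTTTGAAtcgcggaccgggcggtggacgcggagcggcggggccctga
Rrm2: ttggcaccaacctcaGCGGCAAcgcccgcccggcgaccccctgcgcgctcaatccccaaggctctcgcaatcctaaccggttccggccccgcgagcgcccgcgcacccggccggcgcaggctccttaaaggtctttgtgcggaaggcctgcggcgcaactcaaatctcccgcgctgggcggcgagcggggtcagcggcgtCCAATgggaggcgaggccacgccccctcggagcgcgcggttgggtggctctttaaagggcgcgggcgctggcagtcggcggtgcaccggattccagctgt
Rrm1: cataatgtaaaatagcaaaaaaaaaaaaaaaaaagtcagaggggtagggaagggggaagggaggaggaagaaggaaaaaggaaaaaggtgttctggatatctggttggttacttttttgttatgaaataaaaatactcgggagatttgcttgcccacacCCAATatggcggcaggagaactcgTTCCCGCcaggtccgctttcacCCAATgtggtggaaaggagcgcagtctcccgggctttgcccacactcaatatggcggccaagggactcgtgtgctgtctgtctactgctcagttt
Mcm6: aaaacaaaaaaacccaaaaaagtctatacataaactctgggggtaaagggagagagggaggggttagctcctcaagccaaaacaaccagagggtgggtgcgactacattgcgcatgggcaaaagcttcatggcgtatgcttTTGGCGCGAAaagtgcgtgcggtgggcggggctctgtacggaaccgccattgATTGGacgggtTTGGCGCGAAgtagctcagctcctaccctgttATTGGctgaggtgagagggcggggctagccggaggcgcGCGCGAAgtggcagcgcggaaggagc

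A CHR match stood in 16 of the 19 windows of G2/M members (84.2%), against 1 of the 12 windows of G1/S members (8.33%) and 19.2% of all 32851 windows. In Ube2c it lies on the opposite strand at position -29 from the start, and in Aurka and Bub1 it begins 33 and 15 bases after the start. Of the 19 G2/M windows, 15 (78.9%) had a CHR match that begins within 50 bases of the start, as did 5.31% of all windows. A CCAAT box stood in 17 of the 19 G2/M windows (89.5%), in 8 of the 12 G1/S windows (66.7%) and in 37.4% of all windows. The Ube2c window holds 6 CCAAT matches and the Ccnb2 window 3. The E2F words stood in 6 of the 12 G1/S windows (50%), in 2 of the 19 G2/M windows (10.5%) and in 9.57% of all windows. Mcm6 has 5 E2F matches, 2 pairs of which share bases, while the windows of E2f1, Ccne1, Mcm2, Pcna, Tk1 and Tyms hold 0 matches of these words. The windows of Birc5 and Nusap1 hold 0 matches of all 3 elements. These are matches of letters, and no binding was measured.

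**Figure D5:**
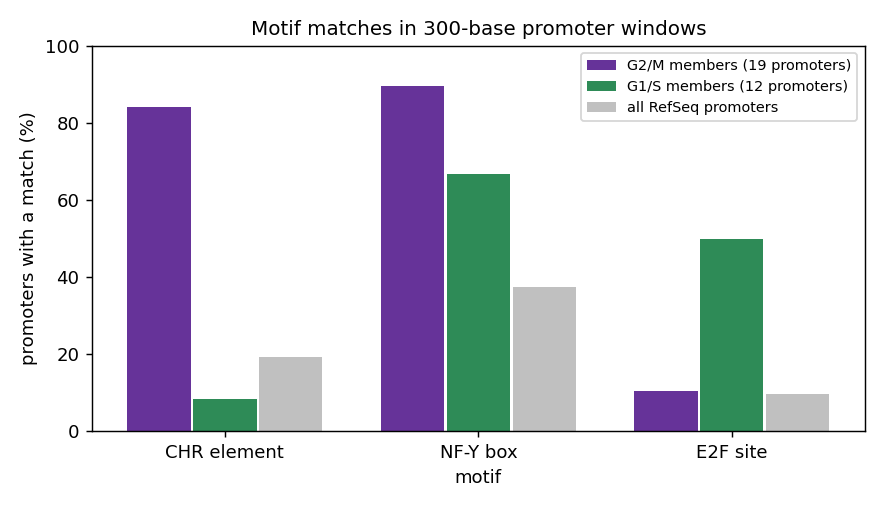
Share of 300-base promoter windows (y axis, percent) with at least 1 match of the CHR element, the CCAAT box bound by NF-Y (labelled NF-Y box) and the E2F site, in G2/M members (purple), G1/S members (green) and all RefSeq windows (grey). CHR matches stand in 84.2% of the G2/M windows and E2F matches in 50% of the G1/S windows, against 19.2% and 9.57% of all windows.

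Mitotic genes with a CHR match had differences from 0.02 to 1.15 in these arrays. The largest among G2/M members with a window, Ube2c (1.15), Mki67 (0.68), Ccnb2 (0.62) and Plk1 (0.61), were all of genes with a match. Ube2c (1.15) and Cdc20 (0.06) both have it near the start, and so does Kif23 (0.02). Birc5 (0.35), Cenpe (0.27) and Nusap1 (0.15) have none in their windows, so few genes without a match can be compared. Whether a match goes with the size of the difference was not tested.

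Other genes of the same pathway were read from 5 further lists. Of 60 measured genes of the spindle, kinetochore and condensin, 50 had positive differences, with a median of 0.20, and at an unadjusted p under 0.05 by limma 17 were higher and 1 lower. Over all clusters these shares were 53.5% above 0, 7.94% higher and 6.54% lower. The 1 gene called was Anln, the anillin that scaffolds the cytokinetic ring. It rose to 5.52, 5.73 and 5.56 in the IR PT2385 arrays, against 5.11, 4.86 and 4.99 in the IR vehicle arrays, a difference of 0.62 (SE 0.11, adjusted p = 0.0484 by limma). The call was lost without any 1 array, with the adjusted p between 0.0615 and 0.231, and it was also lost with median-centred arrays (adjusted p = 0.0574), quantile normalization (adjusted p = 0.0743), a trended robust fit (adjusted p = 0.0549) and without the X and Y chromosomes (adjusted p = 0.0504). The mean deviation of these 60 genes followed the order seen in the G2/M members, with 0.28, 0.13 and -0.06 in the IR PT2385 arrays, against 0.10, -0.19 and -0.26 in the IR vehicle arrays.

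Replication genes outside the MCM ring differed little. Of 42 genes of the replication origin and fork 27 had positive differences, with a median of 0.05, and 0 were called by limma, with 3 higher and 0 lower at an unadjusted p under 0.05, a share near the 7.94% of all clusters. Pole, the catalytic subunit of DNA polymerase epsilon, had a difference of 0.55 (adjusted p = 0.279), and 0.30 without IR PT2385 replicate 1, its highest array. Pold2, a subunit of polymerase delta, had 0.24 (adjusted p = 0.326). Of 19 fork repair genes 0 were called and 2 were higher at an unadjusted p under 0.05, also near that share, with Fanci at 0.56 and Brip1 at 0.33. Without vehicle replicate 3 Brip1 had 0.21. Among 27 E2F, RB and DREAM regulators 0 were called, 1 was higher and 2 were lower at an unadjusted p under 0.05, against 7.94% and 6.54% of all clusters, and the median was 0.04. Mybl2, which encodes B-Myb, had 5.87, 5.79 and 5.80 in the IR PT2385 arrays, against 5.39, 5.39 and 5.15 in the IR vehicle arrays. The groups did not overlap, with a difference of 0.51 (SE 0.10, adjusted p = 0.0808 by limma). Over the alternatives its adjusted p ran from 0.0422 to 0.271, and with 1 array left out from 0.124 to 0.271. The activator gene E2f2 had -0.26 (adjusted p = 0.281).

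CDK inhibitors and arrest genes showed no common direction, with 9 of 18 above 0, a median of -0.00 and 0 called by limma. At an unadjusted p under 0.05, 0 were higher and 2 lower. Over all clusters 53.5% lay above 0, 7.94% were higher and 6.54% lower, so these counts show no shift of the list. The p53 target genes Ccng1 and Btg2 had the smallest p-values. Ccng1 had 11.32, 11.06 and 11.02 in the IR PT2385 arrays, against 11.49, 11.45 and 11.37 in the IR vehicle arrays, a difference of -0.30 (adjusted p = 0.271 by limma). Btg2, an antiproliferative gene, had a difference of -0.66 (adjusted p = 0.300) with overlap.

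Cells other than tubular epithelium can divide in an injured kidney, so their markers were read by array. The 11 proximal tubule markers measured (Lrp2, Cubn and Slc34a1 among them) had both group means above the negative control level, as the labelled tissue would have. So did all 11 endothelial markers, 10 of the 11 fibroblast and pericyte markers and all 5 podocyte markers. This level therefore does not set tubular cells apart from other cells in the isolates. Of 12 lymphocyte markers 9 had both means below that level, Cd3e and Cd79a among them, and the summed log2 signal of the list was 51.0 to 52.6 in IR PT2385 and 49.9 to 51.5 in IR vehicle. The 14 macrophage and monocyte markers had both means above it, with sums of 84.5 to 87.0 in IR PT2385 and 86.7 to 91.8 in IR vehicle. The list went both ways, with 6 members above 0 and 8 below and a median difference of -0.02. At an unadjusted p under 0.05 by limma 0 were higher and 4 lower, against 7.94% and 6.54% of all clusters. Lyz2 was called lower (-1.19, adjusted p = 0.0202 by limma), and Ccr2 and Itgam had -1.15 and -0.95 without overlap. The complement genes C1qa, C1qb and C1qc had differences of 0.11, 0.23 and 0.15. The mean deviation of all 14 macrophage and monocyte markers was highest in vehicle replicate 1, at 0.31. It was -0.05 and 0.06 in the other vehicle arrays and -0.21, -0.08 and -0.03 in the IR PT2385 arrays. The sums of 12 neutrophil markers were 55.6 to 60.4 in IR PT2385 and 61.1 to 63.2 in IR vehicle. Of these 5 lay above 0 and 7 below, with a median of -0.18. At an unadjusted p under 0.05 by limma 0 were higher and 5 lower, against 7.94% and 6.54% of all clusters. Csf3r was called lower (-1.04, adjusted p = 0.0326 by limma). S100a8, S100a9 and Mmp9 had -1.56, -1.01 and -0.64 without overlap, while Camp and Elane had 0.28 and 0.26. Mpo, Ltf and Mmp8, also above 0, and Ngp, below 0, had both means under the negative control level. The sums of 11 endothelial markers were 89.6 to 92.1 in IR PT2385 and 87.6 to 92.7 in IR vehicle. The 11 fibroblast and pericyte markers had sums of 83.9 to 85.2 in IR PT2385 and 80.8 to 85.8 in IR vehicle.

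Markers of nephron segments also moved between arrays. The 11 loop and distal tubule markers had mean deviations of 1.10, 0.47 and 0.09 in the IR PT2385 arrays, an order shared with the G2/M members, against -0.58, -0.57 and -0.51 in the IR vehicle arrays, where vehicle replicate 1 did not stand out. Their sums were 101.1 to 112.2 in IR PT2385 and 93.7 to 94.6 in IR vehicle. All 11 had differences above 0, with a median of 1.03, and 10 did not overlap between groups, where 11.6% of all clusters did so with IR PT2385 on top. Cldn19, a tight junction gene of the thick ascending limb, was called higher (1.24, adjusted p = 0.0259 by limma). The 13 collecting duct markers, all above 0 with a median of 0.42, had sums of 110.8 to 114.2 in IR PT2385 and 104.4 to 107.0 in IR vehicle. Of these 10 did not overlap between groups, against the same 11.6%. Their mean deviations were 0.38, 0.26 and 0.12 in the IR PT2385 arrays, in the order of the G2/M members too, against -0.38, -0.19 and -0.18 in the IR vehicle arrays. The 11 proximal tubule markers had mean deviations of 0.46, -0.04 and -0.49 in the IR PT2385 arrays, again in that order, against 0.09, -0.15 and 0.13 in the IR vehicle arrays. Of these 5 lay above 0 and 6 below, with a median difference of -0.05. The organic anion transporter gene Slc22a6 was called lower (-0.97, adjusted p = 0.00572 by limma), and Kap had -0.39, both without overlap. The water channel gene Aqp1 had 0.50 and the transporter gene Slc22a8 0.45, both with overlap. The 15 injury and repair markers ran the other way in the treated arrays, with -0.60, -0.02 and 0.24 in IR PT2385, against 0.01, 0.29 and 0.08 in IR vehicle. Of these 4 lay above 0 and 11 below, with a median difference of -0.13. At an unadjusted p under 0.05 by limma 0 were higher and 3 lower, against 7.94% and 6.54% of all clusters. Sox9 (-1.56) and Cd44 (-0.76) were lower without overlap, and Pax2 (0.16) was higher without overlap. The falling order over IR PT2385 replicates 1, 2 and 3 was not particular to the segment markers and the mitotic genes. In these arrays the origin and fork list had mean deviations of 0.07, 0.06 and -0.03. The lymphocyte list, mostly under the negative control level, had 0.09, 0.08 and -0.04. The part of all these cell markers in the differences of the cell cycle genes was not tested.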

How the data were processed

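Total RNA from 6 samples of isolated mouse renal tubular cells was hybridised to Affymetrix whole-transcript arrays, 1 per sample. The deposited values are log2 signals summarised per transcript cluster. Per the submitters' processing notes they came from Transcriptome Analysis Console. Its version and its settings for background and normalization are not stated in the sources at hand. Array medians were 6.20 to 6.25. After removal of 6640 control rows, 22206 clusters were tested without a filter in limma 3.58.1 (R 4.3.3), with treatment as the only term, 2-sided, adjusted by Benjamini-Hochberg at 0.05. Symbols came from the platform annotation (19572 clusters with 1 symbol, 0 with several, 2634 with none), and updating through Entrez IDs changed 0. Each of the 40 measured members had 1 cluster. All 40 are reported. From each companion list the text names up to 3 called genes, or the 2 with the smallest p.

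The members, classes, lists and tests were chosen with earlier results of these data known. Histone genes, promoter elements and the counts of non-overlapping members with an array left out were added after seeing the data. Alternatives were a block for replicate number, other scalings, filters on dim clusters, another variance prior, array weights, omission of the X and Y chromosomes and of each array. The fit was tested on simulated data. The labels do not tie each array to an animal of its own. The p-values may thus reflect technical spread alone, and the number of arrays limits the precision.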

Additional observations from a re-analysis of the deposited data

How the results depend on the processing

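With 3 arrays a group and no uninjured samples, intervals of dim genes are wide. The count of called clusters was 184, and 456 with array weights and 42 to 179 with 1 array left out. The count of members called higher was 0, and 1 (Ube2c) with array weights, with the replicate number as a block (adjusted p = 0.0358) and without vehicle replicate 1, so 0 to 1 with 1 array left out. The count called lower was 0 in every fit run. The G2/M median difference ran from 0.24 to 0.47 and the G1/S median from 0.07 to 0.22 with 1 array left out. The G1 entry median of 0.10 became 0.059 with median-centred arrays and 0.15 with quantile normalization. Members with small differences changed sign. With median-centred arrays Cdk4 had -0.044, Kif23 -0.028 and Mcm6 -0.045. With quantile normalization Mcm4 had 0.011 and Mcm5 0.016, and with array weights Mcm5 had 0.078 and Mcm6 -0.022. With 1 array left out, Cdk4 ran from -0.050 to 0.060, Kif23 from -0.14 to 0.25, Mcm4 from -0.11 to 0.030, Mcm5 from -0.10 to 0.082, Mcm6 from -0.061 to 0.053, Nusap1 from -0.086 to 0.37, Ccne2 from -0.079 to 0.37 and Cdc20 from -0.14 to 0.20. G2/M members without overlap and higher in IR PT2385 numbered 5 of 23, against 11.6% of all clusters. With 1 array left out they numbered 5 to 16, against 15.3% to 18.5% of all clusters. The deviations of same-numbered arrays correlated at 0.14, 0.03 and -0.06, so the numbers were not taken as pairs. The replicate block gave 178 called clusters and an adjusted p of 0.0895 for Anln, and IR PT2385 replicates 2 and 3 did not correlate best with the vehicle array of their own number. The causes were not tested.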

Other observations

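Clustered histone genes, whose transcripts are made in S phase to package new DNA, were read by symbol after the other values had been seen. Of 49 measured histone genes 42 had positive differences, with a median of 0.24, and 0 were called by limma, with 13 higher and 0 lower at an unadjusted p under 0.05. Over all clusters 53.5% lay above 0, 7.94% were higher and 6.54% lower. H3c13 had 9.70, 9.63 and 9.41 in the IR PT2385 arrays, against 9.52, 8.57 and 8.70 in the IR vehicle arrays, a difference of 0.65 (SE 0.23, adjusted p = 0.254 by limma). Vehicle replicate 1 was the highest vehicle array for 48 of the 49, against 29.9% of all clusters, and the mean deviation was 0.14, 0.15 and 0.03 in the IR PT2385 arrays, against 0.23, -0.27 and -0.29 in the IR vehicle arrays. Averaged over these genes, vehicle replicate 1 was the highest of the 6 arrays. Histone genes are near-identical copies, and H3c14 and H3c15 carried the same values here, so the 49 are not separate measurements.

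Promoter windows with both a CHR match and a CCAAT box belonged to 1214 measured genes outside the cell cycle lists. These genes had a median difference of 0.02 and 6.51% of them were higher at an unadjusted p under 0.05, against a median of 0.01 and 7.92% over all 15691 measured genes with a window.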
